A study of Mus musculus with 11 samples.

Results

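Mitochondrial carriers of the Slc25 family were followed in mucosal scrapings of the mouse colon, with and without dietary inulin. Members were all genes whose symbol begins with Slc25a and a number and that had a probe set with exactly 1 gene symbol in the platform annotation, which gave 46 genes among 18820. They were covered by 51 probe sets, and each of the 4 carriers with more than 1 probe set was read from its brightest one on average. The animals were male C57BL/6J mice of 12 weeks, 1 array per mouse. All were first adapted for 2 weeks to the low-fat diet of the controls. Control mice (n = 5) then stayed on it for 10 days, and inulin mice (n = 6) ate it with 10% by weight of the corn starch exchanged for inulin, a plant fructan that gut bacteria ferment. In the treatment protocol an overnight fast was followed by 1 g of the test diet and killing 4 h later, whereas the design text mentions the fast only. The labels give no cage and no array batch.

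Slc25 proteins sit in the inner mitochondrial membrane and swap small solutes between the matrix and the cytosol. They let ATP out and ADP and phosphate in, carry citrate out for lipid synthesis, run the malate-aspartate shuttle that moves reducing equivalents, and bring in acylcarnitines, amino acids, nucleotides, cofactors and iron. Colonocytes oxidise butyrate and other short-chain fatty acids in their mitochondria as a main fuel, so that ATP export and intermediate exchange are busy routes in this epithelium.

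The arrays had medians from 5.38 to 5.46 and correlations between arrays from 0.988 to 0.998, on log2 values normalised by the robust multi-array average (RMA). Epithelial markers were at mean log2 values of 11.33 to 11.42 in control and 11.30 to 11.40 in inulin mice, with 0 of 14 markers below the lower quartile of all genes. In that list 8 of 14 were higher under inulin. Krt20, a marker of surface cells, differed by 0.30 ± 0.080 (SE; limma adjusted p 0.161) and Lgr5, a marker of crypt stem cells, by -0.58 ± 0.24 (adjusted p 0.324). Car1 and Slc26a3 of the same list differed by 0.10 ± 0.055 and -0.04 ± 0.12, so the list gives no single direction. Markers of other tissue were also measured, and none of those in the lists of this paragraph passed the adjusted threshold between diets, though most were higher in inulin mice and the mice of both diets overlapped. The mean of 13 adipocyte markers was 5.41 to 6.11 in control and 5.62 to 8.25 in inulin mice (13 of 13 higher), that of 10 pancreatic acinar markers 5.20 to 6.51 and 5.20 to 9.74 (8 of 10 higher), and that of 10 smooth muscle markers 5.17 to 5.59 and 5.24 to 5.85 (8 of 10 higher). Fibroblast markers were higher in 7 of 7 (5.28 to 5.50 and 5.30 to 6.17) and endothelial markers in 6 of 6 (4.42 to 4.60 and 4.54 to 5.54). Leukocyte markers were higher in 5 of 7, with 7.47 in inulin 5 and 5.67 to 6.51 in the other mice. Fat markers were highest in inulin mice 5, 4 and 2, at 8.25, 7.82 and 7.26, and pancreas markers in inulin 3, at 9.74. Hox genes that mark the distal colon were lower under inulin in 5 of 5, with list means of 6.94 to 7.97 in control and 6.36 to 7.26 in inulin mice. Hoxd10 differed by -1.50 ± 0.26 (SE) and Hoxd11 by -1.45 ± 0.26, each with a limma adjusted p of 0.055, and Hoxd12 by -0.69 ± 0.16 (adjusted p 0.105). Hoxb13 and Hoxa13 differed least, by -0.62 ± 0.28 and -0.46 ± 0.26, and their mean was lowest in inulin 4, at 7.67, against 8.79 to 9.40 in control. The Hox covariate used further on is the mean of that last pair, so it does not hold the larger differences of the other 3 genes. The part of this tissue mix and of the position along the colon in the carrier results was not tested beyond the covariate fits given with them. In RNA from a mixed scraping, fewer cells of a type and less RNA per cell cannot be told apart.

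Most carriers were well above the dim end of the arrays. Of the 46, 20 had a mean array value above the upper quartile of all genes (8.12), 12 lay between the median (5.89) and that quartile, 11 between the lower quartile (3.90) and the median, and 3 below the lower quartile. The order given here is one of array values, since the brightness of a probe set depends on its probes as well as on its RNA, so it is no order of transcript amounts. At the top stood Slc25a5, the adenine nucleotide translocase of proliferating and epithelial cells, at 12.66 ± 0.013 (SD) in control and 12.80 ± 0.059 in inulin mice. Next came Slc25a3, the phosphate carrier that feeds ATP synthase, at 11.94 ± 0.032 and 11.99 ± 0.056. The carnitine-acylcarnitine carrier Slc25a20 followed at 10.85 ± 0.089 and 10.91 ± 0.14. Slc25a24, which exchanges ATP-Mg for phosphate, was at 10.64 ± 0.033 and 10.77 ± 0.092, and Slc25a10, the dicarboxylate carrier, at 10.54 ± 0.091 and 10.79 ± 0.13. Slc25a20, Slc25a24 and Slc25a10 overlapped between mice, so their places in the order are not separated.

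At the bottom were Slc25a54, a relative of the ATP-Mg carriers, at 2.77 ± 0.067 (SD) and 2.81 ± 0.11, and Slc25a31, the testis form of the adenine nucleotide translocase, at 2.83 ± 0.10 and 2.78 ± 0.041. Slc25a21, which carries oxoadipate, was at 3.48 ± 0.092 and 3.53 ± 0.083. These 3 probe sets lay below the lower quartile and could hardly show a difference between diets. The glutamate carrier Slc25a18 (3.94 ± 0.11 and 4.02 ± 0.14) and the ATP-Mg carrier relative Slc25a41 (4.09 ± 0.32 and 4.10 ± 0.17) were just above it. Within substrate classes the forms were unequal in brightness. Of the adenine nucleotide translocases, Slc25a4, the form of heart and skeletal muscle, was at 6.58 ± 0.21 and 6.70 ± 0.17. Of the glutamate carriers, Slc25a22 was at 7.28 ± 0.063 and 7.46 ± 0.19.

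**Figure D1:**
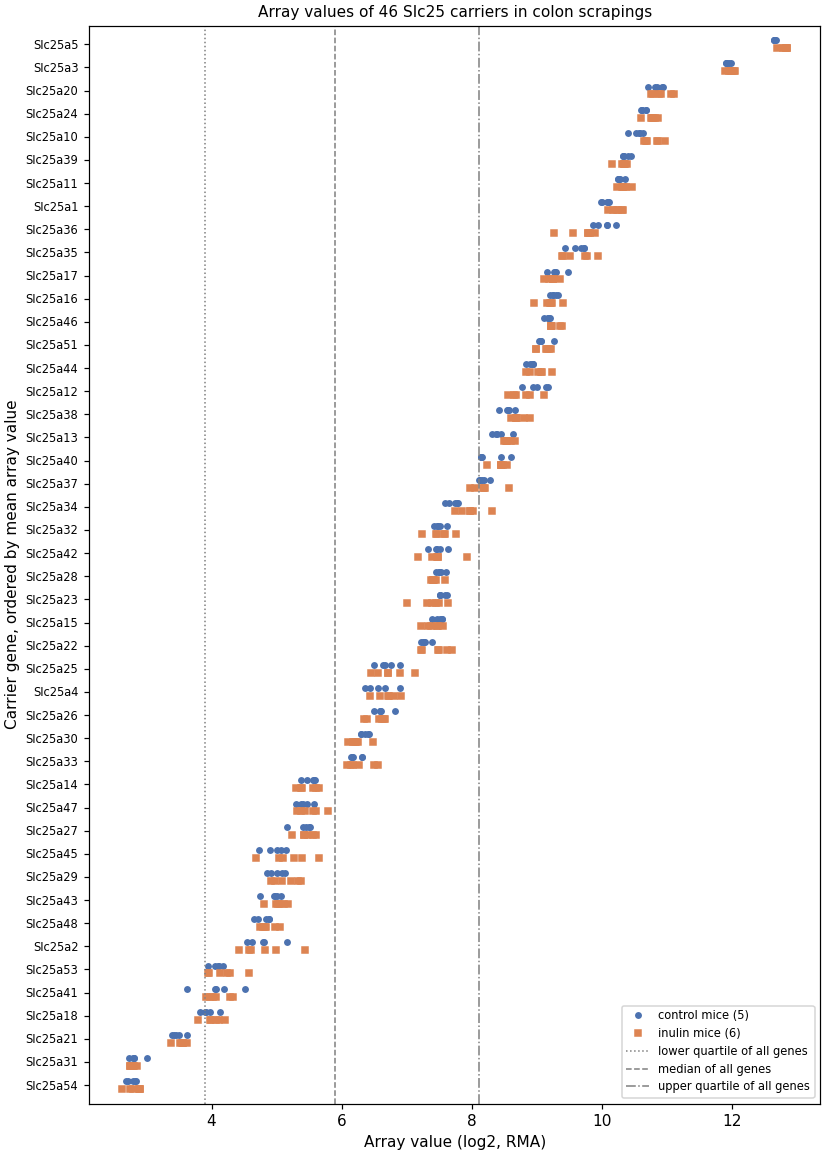
Array values (log2, RMA) of the 46 carriers, 1 row per gene ordered by mean, with circles for the 5 control and squares for the 6 inulin mice. Lines mark the quartiles of all 18820 genes, and 20 carriers lie to the right of the upper quartile at 8.12 and 3 to the left of the lower quartile at 3.90.

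The comparison of inulin with control asks how the colonic carriers stood after 10 days of a fermentable fibre. In limma 0 of the 46 carriers passed an adjusted p of 0.05, where 17 of all 18820 genes did (0.0903%), and the smallest adjusted p was 0.171, for Slc25a10. At an unadjusted p under 0.05 there were 7 carriers, 15.2% of the family, close to the 13.5% of all genes. Their directions were uneven: 6 were higher under inulin (13.0%, against 6.34% of all genes) and 1 was lower (2.17%, against 7.19%). In all, 33 of 46 carriers (71.7%) had a difference above 0, against 51.4% of all genes. The differences ran from -0.35 to 0.27 on the log2 scale with a median of 0.05, where the median of all genes was 0.0039. In 3 carriers, Slc25a10, Slc25a5 and Slc25a46, every inulin mouse lay above every control mouse. That is 6.52% of the family, against 1.01% of all genes, and no carrier had the reverse, which 1.16% of all genes showed (2.18% in either direction).

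**Figure D2:**
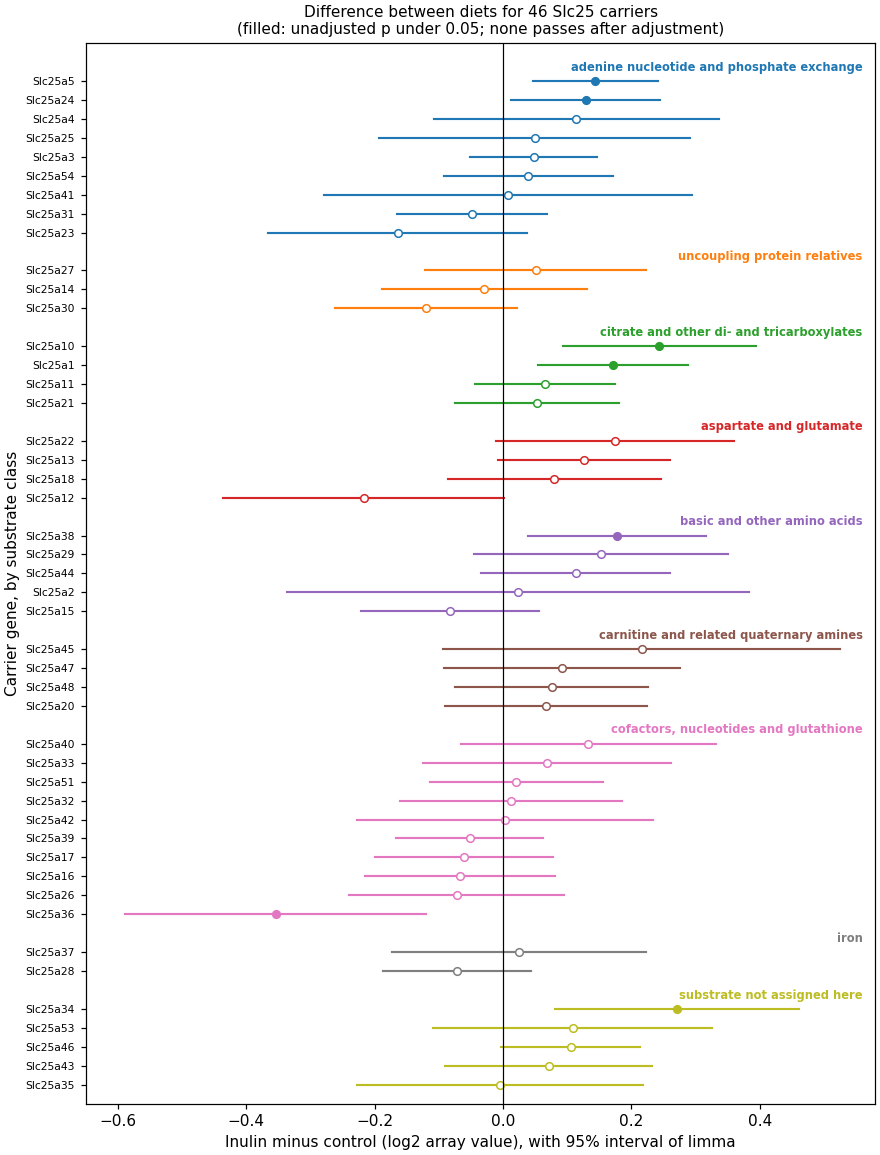
Difference between diets (inulin minus control, log2 array value) with limma's 95% interval for each of the 46 carriers, coloured and grouped by substrate class. Filled points mark the 7 carriers with an unadjusted p under 0.05: Slc25a10, Slc25a1, Slc25a5, Slc25a24, Slc25a38 and Slc25a34 lie to the right of 0 and Slc25a36 to the left.

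The 4 carriers of di- and tricarboxylates were all higher under inulin (51.4% of all genes were), by 0.05 to 0.24 with a median of 0.12. The smallest of these differences was that of Slc25a21, whose probe set lay below the lower quartile of all genes. At an unadjusted p under 0.05 there were 2 (50%, against 13.5% of all genes), in a class of only 4. Slc25a10 exchanges malate and succinate for phosphate. Its values were 10.57, 10.53, 10.40, 10.64 and 10.59 in control mice 1 to 5 and 10.87, 10.86, 10.70, 10.97, 10.68 and 10.65 in inulin mice 1 to 6. The groups did not overlap, though the lowest inulin mouse (10.65) was close to the highest control (10.64). The difference was 0.24 ± 0.070 (SE), a 1.18-fold level with a 95% interval from 1.07 to 1.31 (limma unadjusted p 0.0041, adjusted p 0.171). Inulin 4, with the highest Slc25a10, had the lowest distal Hox mean. With that mean as a covariate the Slc25a10 difference was 0.13 (limma unadjusted p 0.035, adjusted p 0.361).

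Slc25a1 carries citrate out of the matrix in exchange for malate and so supplies acetyl-CoA for fatty acid and sterol synthesis. Control mice 1 to 5 had 10.08, 9.99, 10.09, 10.01 and 10.11, and inulin mice 1 to 6 had 10.32, 10.10, 10.22, 10.31, 10.25 and 10.17. Only inulin 2 fell within the control range. The difference was 0.17 ± 0.054 (SE), or 1.13-fold (1.04 to 1.22; limma unadjusted p 0.0073, adjusted p 0.203). With the fat and pancreas marker means as covariates it was 0.15 with an unadjusted p of 0.093, and without inulin mice 3, 4 and 5 it was 0.14 with an unadjusted p of 0.064. The oxoglutarate-malate carrier Slc25a11, a limb of the malate-aspartate shuttle, differed by 0.07 ± 0.050 (SE), with overlapping groups.

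Among carriers of adenine nucleotides and phosphate 7 of 9 were higher (77.8%, against 51.4% of all genes), with a median of 0.05. At an unadjusted p under 0.05 there were 2 (22.2%, against 13.5% of all genes). Slc25a5, which trades matrix ATP for cytosolic ADP, was at 12.67, 12.65, 12.64, 12.67 and 12.65 in control mice 1 to 5 and at 12.84, 12.84, 12.81, 12.69, 12.78 and 12.85 in inulin mice 1 to 6. Control mice were packed within a span far narrower than that of the inulin mice, which all lay above them. The difference was small, 0.14 ± 0.045 (SE), or 1.10-fold (1.03 to 1.18; limma unadjusted p 0.0073, adjusted p 0.203). The other two probe sets annotated to this gene differed by 0.12 and 0.13. Slc25a5 has pseudogene copies in the mouse genome, and whether RNA of such copies adds to its signal cannot be told apart. With the fat and pancreas covariates the difference was 0.20.

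Slc25a24, a calcium-regulated carrier that sets the matrix adenine nucleotide pool, ran from 10.60 to 10.68 in control (median 10.63) and from 10.60 to 10.87 under inulin (median 10.79). Inulin 5, at 10.60, was just below every control, and the other 5 inulin mice were above them all. The difference was 0.13 ± 0.054 (SE; limma unadjusted p 0.032, adjusted p 0.319). With the Hox covariate it was 0.08, with an unadjusted p of 0.19. It kept an unadjusted p under 0.05 in 11 of 21 other fits and in 4 of the 11 that left out a mouse. The phosphate carrier Slc25a3 differed by 0.05 ± 0.046 (SE), and the ATP-Mg carriers Slc25a23 and Slc25a25 by -0.16 ± 0.093 and 0.05 ± 0.11. Slc25a4 differed by 0.11 ± 0.10 and reached 6.89 in control 4 and 6.91 in inulin 2, the highest mouse of each diet.

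The upstream sequences of the 4 carriers with the smallest p-values show what lies before genes of this family. Each is the 250 bases before the RefSeq start site, and capitals mark letters that match 1 of the 7 motifs described further on.

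Slc25a10 promoter, GRCm38.p6, chr11:120491587-120491836, plus strand: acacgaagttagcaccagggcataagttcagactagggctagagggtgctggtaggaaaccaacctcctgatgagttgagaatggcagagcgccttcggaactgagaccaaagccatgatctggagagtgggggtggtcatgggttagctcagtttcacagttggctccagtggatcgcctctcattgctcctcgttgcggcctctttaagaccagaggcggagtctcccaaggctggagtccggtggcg

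Slc25a1 promoter, GRCm38.p6, chr16:17928220-17928469, minus strand: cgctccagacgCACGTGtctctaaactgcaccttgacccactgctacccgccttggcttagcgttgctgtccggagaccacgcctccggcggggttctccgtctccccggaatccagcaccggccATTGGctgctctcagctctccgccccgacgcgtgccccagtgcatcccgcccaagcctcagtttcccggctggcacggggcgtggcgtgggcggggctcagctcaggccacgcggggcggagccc

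Slc25a5 promoter, GRCm38.p6, chrX:36795347-36795596, plus strand: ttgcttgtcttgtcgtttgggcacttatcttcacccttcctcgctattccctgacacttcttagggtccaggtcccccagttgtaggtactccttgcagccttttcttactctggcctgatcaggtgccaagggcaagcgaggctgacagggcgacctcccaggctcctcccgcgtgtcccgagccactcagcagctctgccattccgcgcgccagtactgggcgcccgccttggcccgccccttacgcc

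Slc25a36 promoter, GRCm38.p6, chr9:97111042-97111291, minus strand: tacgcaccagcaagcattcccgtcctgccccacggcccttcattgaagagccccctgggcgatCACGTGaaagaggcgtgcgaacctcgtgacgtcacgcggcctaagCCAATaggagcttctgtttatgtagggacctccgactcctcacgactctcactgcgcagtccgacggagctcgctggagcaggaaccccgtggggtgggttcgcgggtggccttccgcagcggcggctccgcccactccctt

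The last of these belongs to the only carrier that was lower at an unadjusted p under 0.05. Slc25a36 carries pyrimidine nucleotides for mitochondrial DNA and RNA synthesis. Its values were 10.09, 9.95, 10.22, 9.87 and 10.07 in control mice 1 to 5 and 9.79, 9.56, 9.78, 9.82, 9.26 and 9.90 in inulin mice 1 to 6. Inulin 6 alone reached into the control range, and inulin 5, the mouse with the highest fat, leukocyte, endothelial, fibroblast and smooth muscle markers, was far below the rest. The difference was -0.35 ± 0.11 (SE), the largest in size of the family, or 0.782-fold (0.665 to 0.920; limma unadjusted p 0.0062, adjusted p 0.192). Its second probe set differed by -0.27. With fat and pancreas covariates the main difference was -0.15, with an unadjusted p of 0.23, and without inulin 5 it was -0.27.

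The other carriers of cofactors, nucleotides and glutathione were divided. In the class 5 of 10 were higher (50%, against 51.4% of all genes) and the median was -0.02. Slc25a33, the second pyrimidine nucleotide carrier, differed by 0.07 ± 0.089 (SE). The glutathione carriers Slc25a39 and Slc25a40 differed by -0.05 ± 0.053 and 0.13 ± 0.092, the coenzyme A carriers Slc25a16 and Slc25a42 by -0.07 ± 0.069 and 0.0033 ± 0.11, and the NAD carrier Slc25a51 by 0.02 ± 0.062. Slc25a32 (folate and flavin, 0.01), Slc25a26 (S-adenosylmethionine, -0.07) and the peroxisomal Slc25a17 (-0.06) were as near 0, and on the probe sets kept all of these groups overlapped. The second, dimmer probe set of Slc25a40 differed by 0.16 ± 0.070 (SE), with an unadjusted p of 0.040 in limma on all probe sets. On it every inulin mouse lay above every control, though the lowest inulin and the highest control mouse were both at 7.53. The mitoferrins, which bring iron to haem and iron-sulfur cluster synthesis, differed by 0.02 ± 0.091 (Slc25a37) and -0.07 ± 0.053 (Slc25a28).

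Among carriers of basic and other amino acids 4 of 5 were higher (80%, against 51.4% of all genes), with a median of 0.11. At an unadjusted p under 0.05 there was 1 (20%, against 13.5% of all genes). Slc25a38 imports glycine for haem synthesis. It ran from 8.42 to 8.67 in control (median 8.55) and from 8.60 to 8.90 under inulin (median 8.69), with inulin 1 highest. The difference was 0.18 ± 0.064 (SE; limma unadjusted p 0.016, adjusted p 0.254), and 0.28 with fat and pancreas covariates. The branched-chain amino acid carrier Slc25a44 differed by 0.11 ± 0.068, the basic amino acid carrier Slc25a29 by 0.15 ± 0.091, and the ornithine carriers Slc25a15 and Slc25a2 by -0.08 ± 0.064 and 0.02 ± 0.17.

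The aspartate and glutamate carriers pointed both ways. Slc25a12 and Slc25a13 both export aspartate for the malate-aspartate shuttle. Slc25a12 ran from 8.78 to 9.17 in control and from 8.56 to 9.12 under inulin (median 8.75), a difference of -0.22 ± 0.10 (SE; limma unadjusted p 0.052, adjusted p 0.375). Slc25a13 ran from 8.31 to 8.64 (median 8.40) and from 8.49 to 8.66 (median 8.54), a difference of 0.13 ± 0.062 (unadjusted p 0.062, adjusted p 0.397). In each the groups overlapped. The glutamate carrier Slc25a22 differed by 0.17 ± 0.086, with inulin mice 1 and 2 at 7.62 and 7.70 above every other mouse.

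Slc25a20 carries acylcarnitines into the matrix for fatty acid oxidation and is a known target of PPAR receptors, of which the series title names PPARγ. Its values were 10.82, 10.85, 10.71, 10.92 and 10.94 in control mice 1 to 5 and 11.06, 10.91, 10.76, 10.79, 11.10 and 10.87 in inulin mice 1 to 6. Inulin 5 and inulin 1 were above the controls and the other 4 lay among them. The difference was 0.07 ± 0.073 (SE), or 1.05-fold with a 95% interval from 0.939 to 1.17 (limma adjusted p 0.734). Angptl4, the gene of the title, was highest in inulin 1 and 2, at 8.11 and 8.02 against 6.04 to 6.78 in the other mice, and Slc25a20 in inulin 2 was within the control range. Slc25a45, Slc25a47 and Slc25a48, grouped here with Slc25a20, differed by 0.22 ± 0.14, 0.09 ± 0.085 and 0.08 ± 0.069, all from array values below the median of all genes.

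Of 5 carriers with no substrate assigned here, Slc25a34 differed most. It ran from 7.59 to 7.78 in control (median 7.75) and from 7.75 to 8.32 under inulin (median 7.97). Inulin 1 stood above the other mice and inulin 4 within the controls. The difference was 0.27 ± 0.088 (SE), or 1.21-fold (1.06 to 1.38; limma unadjusted p 0.0088, adjusted p 0.214), and it was 0.40 with fat and pancreas covariates and 0.20 without inulin 1. Slc25a46, a relative that sits in the outer membrane and takes part in mitochondrial shape, had groups that narrowly did not overlap, at 9.11 to 9.20 and 9.21 to 9.38. Its difference was 0.11 ± 0.050 (SE; limma unadjusted p 0.056, adjusted p 0.384), and 0.05 with the Hox covariate. On its second, dimmer probe set the difference was 0.16 and the groups overlapped. Slc25a35, Slc25a43 and Slc25a53 differed by -0.0045 ± 0.10, 0.07 ± 0.075 and 0.11 ± 0.10. The uncoupling protein relatives Slc25a14, Slc25a27 and Slc25a30 differed by -0.03 ± 0.073, 0.05 ± 0.080 and -0.12 ± 0.066.

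**Figure D3:**
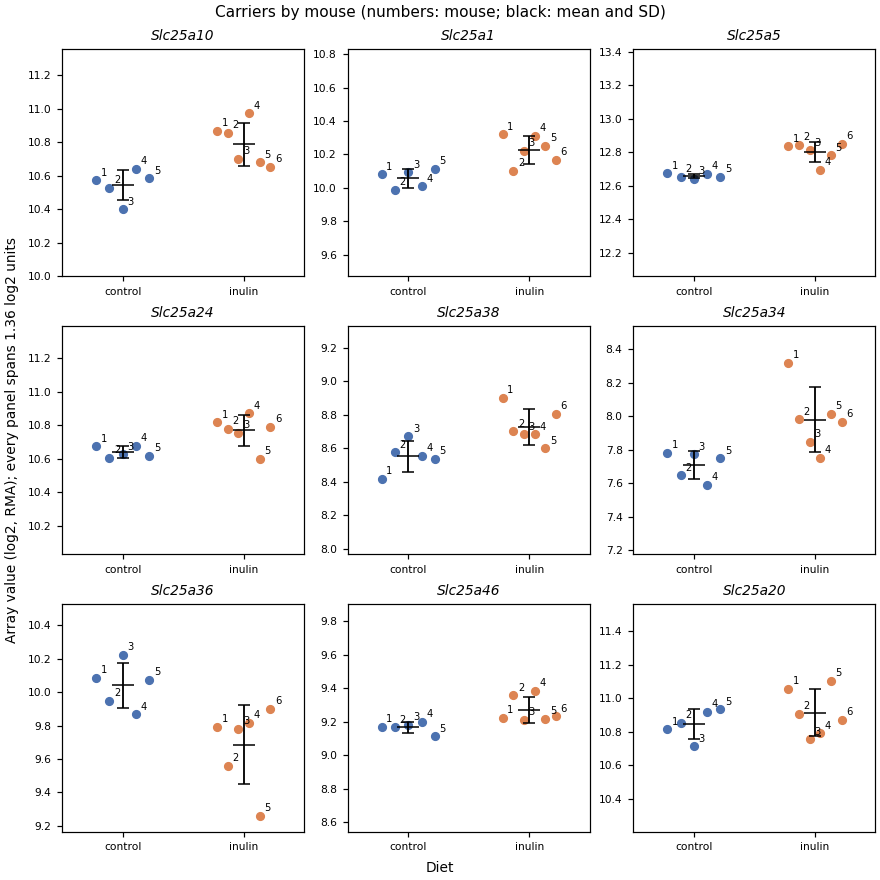
Array values (log2, RMA) by mouse for 9 carriers, with control mice on the left and inulin mice on the right of each panel, mouse numbers beside the points, and black bars for mean and SD. Groups do not overlap for Slc25a10, Slc25a5 and Slc25a46, inulin 5 lies lowest for Slc25a36 at 9.26, and the diets overlap for Slc25a20.

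Mouse by mouse, the mean over the 46 carriers was 7.43 to 7.45 in control mice and 7.43 to 7.52 in inulin mice. Inulin 5 was lowest and inulin 1 highest, and inulin 5 was the only inulin mouse not above the controls. Each inulin mouse had 13 to 17 carriers above every control (28.3% to 37.0%, against 20.6% to 23.8% of all genes). Inulin 5 had 16 carriers below every control (34.8%, against 31.0% of all genes), and the other inulin mice had 6 to 9 (13.0% to 19.6%, against 18.6% to 22.8% of all genes). Inulin mice 1 and 2 held the 2 highest values of all mice in 2 of 46 carriers (4.35%), Slc25a22 and Slc25a33, against 2.44% of all genes.

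**Figure D4:**
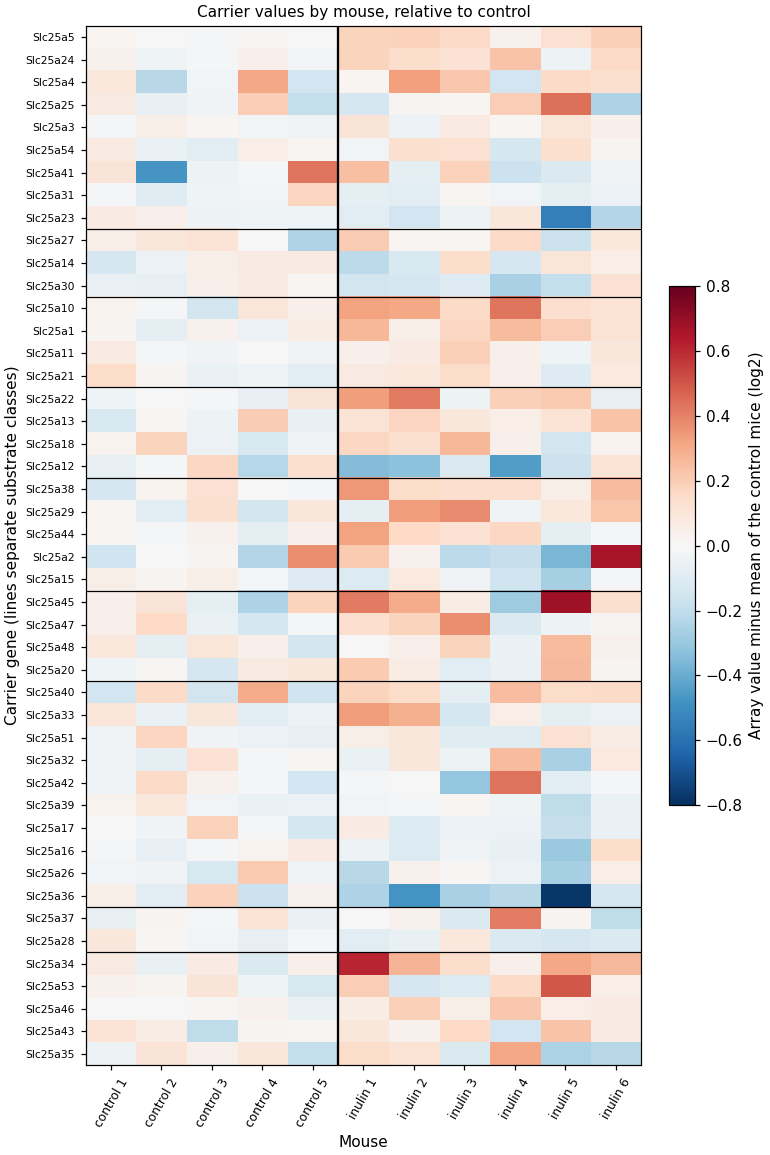
Array value of each carrier in each mouse minus the mean of the 5 control mice (log2), with substrate classes separated by lines and diets by the heavy line. Inulin 5 holds the deepest blue cells (Slc25a36 and Slc25a23). Slc25a5 and Slc25a10 are above the control mean in all 6 inulin mice, in pale shades, palest for Slc25a5 in inulin 4.

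Genes that work with the carriers were read from 11 lists, of which 88 genes were measured. Over all of them 0 passed an adjusted p of 0.05, and 14 had an unadjusted p under 0.05 (15.9%, against 13.5% of all genes), 6 higher and 8 lower. Me1, the cytosolic malic enzyme that makes NADPH, differed by 1.02 ± 0.32 (SE), or 2.02-fold (adjusted p 0.203), and Gpd1 of the glycerol phosphate shuttle by 0.50 ± 0.13, or 1.42-fold (adjusted p 0.137). Both are abundant in fat cells. Me1 was highest in inulin 5 and 4, at 8.37 and 8.22. Inulin 1 and 2, at 7.58 and 7.27, were also above every control (at most 6.91), and inulin 3 and 6 were not. Gpd1 was highest in inulin 4, 5 and 1, at 9.31, 9.03 and 9.01. Inulin 2 and 3, at 8.98 and 8.63, were also above every control (at most 8.47), and inulin 6 was not. The part of fat cells in the Me1 and Gpd1 differences was not tested. Fasn, the fatty acid synthase, differed by 0.43 ± 0.20 and was also highest in inulin 5 and 4, at 10.77 and 10.52. Acly, the enzyme that splits the citrate delivered by Slc25a1, differed by -0.12 ± 0.10.

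Of 13 porins and other mitochondrial membrane transporters, 3 were higher (23.1%, against 6.34% of all genes) and 1 lower (7.69%, against 7.19%) at an unadjusted p under 0.05. Mcu, the pore of the mitochondrial calcium uniporter, had the smallest p of the 88. It was at 9.93, 9.98, 9.84, 10.04 and 9.96 in control mice 1 to 5 and 10.20, 10.12, 10.18, 10.23, 10.10 and 10.17 in inulin mice 1 to 6, with no overlap. Its difference was 0.21 ± 0.050 (SE), or 1.16-fold (limma unadjusted p 0.00086, adjusted p 0.106). Ghitm, an inner membrane protein, and Mpc1, a subunit of the pyruvate carrier, differed by 0.13 ± 0.048 and 0.17 ± 0.067, and the sideroflexin Sfxn3 by -0.28 ± 0.10. The porins Vdac1, Vdac2 and Vdac3 differed by 0.03, 0.08 and 0.0036.

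Of 10 regulators of mitochondrial genes, 1 had a difference above 0 (10%, against 51.4% of all genes), the median was -0.06, and 2 were lower at an unadjusted p under 0.05 (20%, against 7.19%). These were Pprc1 and Ppargc1a, coactivators of the PGC-1 family, with differences of -0.30 ± 0.073 (adjusted p 0.118) and -0.26 ± 0.091 (adjusted p 0.247). The third member of that family, Ppargc1b, differed by -0.04 ± 0.086. The 1 regulator above 0 was Pparg, the gene of the receptor that the series title names, at 0.11 ± 0.074 (limma adjusted p 0.547). Of 8 mitochondrial one-carbon enzymes, 1 had a difference above 0 (12.5%, against 51.4% of all genes), with a median of -0.12. At an unadjusted p under 0.05, 2 were lower (25%, against 7.19%), Mthfd1l at -0.21 ± 0.074 and the formyltransferase Mtfmt at -0.15 ± 0.065. Of 11 import components that insert carriers into the inner membrane, 5 were higher (45.5%, against 51.4% of all genes) and 6 lower. Timm8a1 differed by -0.20 ± 0.073.

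The remaining lists held few genes at that threshold. Haem and iron-sulfur genes had Ppox (-0.16) and Nfs1 (-0.17) lower among 11 (18.2%, against 7.19% of all genes). Phosphate and nucleotide partners had the adenylate kinase Ak4 higher among 7 (14.3%, against 6.34% of all genes), at 0.58 ± 0.16 (limma adjusted p 0.164). Ak4 was highest in inulin 5 and 4, at 10.20 and 10.15, and control 4, at 9.79, lay above inulin 2, 3 and 6 (9.44 to 9.72). The part of fat cells in the Ak4 difference was not tested either. Ornithine and arginine enzymes (6 measured) had 0, as did family members under other symbols (4 measured), with Mtch2 at 0.11 and Ucp1, the brown fat uncoupling protein, at an array value of 3.41 in control, below the lower quartile. Carnitine shuttle enzymes also had 0 of 6. Inulin mice 1 and 2 held the highest values in 3 of these 6 (50%, against 2.44% of all genes): Cpt2, Crot and the carnitine importer Slc22a5. In Slc22a5 they were at 9.30 and 9.16 against 8.59 to 8.93 in the other mice, and in Slc25a20 they were not the top pair.

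**Figure D5:**
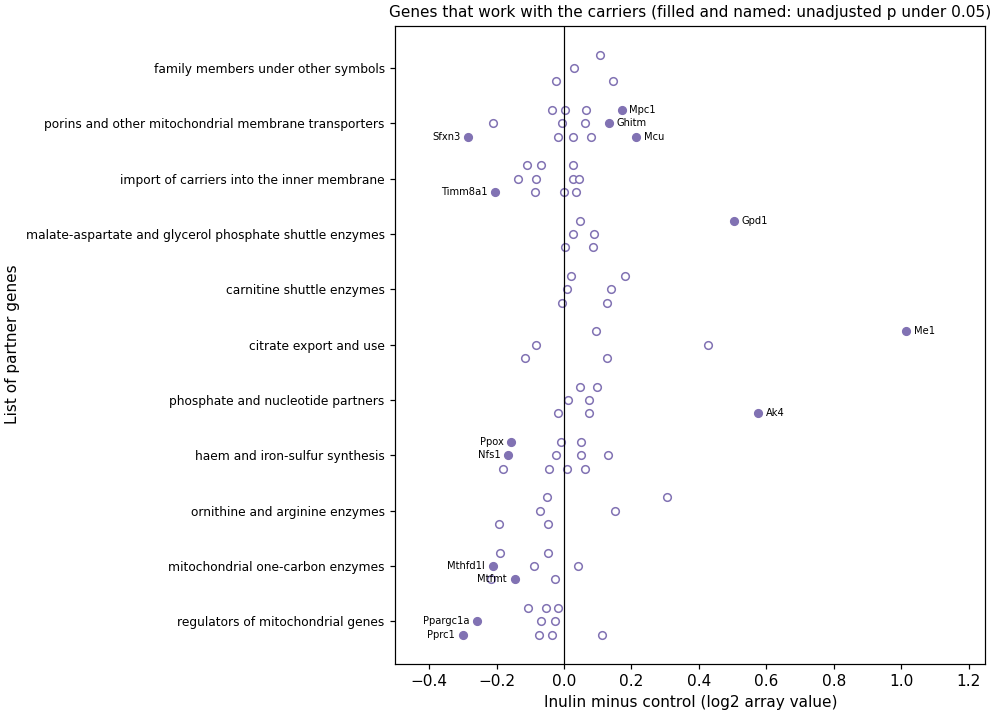
Difference between diets (inulin minus control, log2 array value) for 88 measured genes in 11 lists that work with the carriers, 1 point per gene. Filled and named points have an unadjusted p under 0.05, with Me1 at 1.02, Ak4 at 0.58 and Gpd1 at 0.50 farthest to the right and Pprc1 at -0.30 farthest to the left.

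RefSeq promoter windows were found for 36 of the 46 carriers, 46 windows in all, since several genes have more than 1 start site, and the windows of Slc25a14 and Slc25a23 overlap within each gene. The 250 bases before the start were searched on both strands for 7 motifs. The E-box CACGTG, bound by Myc and related factors, was in 8 windows of 7 carriers (17.4% of windows, against 6.02% of 32851 windows of all genes). It lies in the sequences above in Slc25a1 and in Slc25a36, which differed in opposite directions. The CCAAT box was in 45.7% of carrier windows and 33.8% of all, among them the same pair. Carrier windows had a median GC content of 57.6%, against 52.4% of all windows.

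The other motifs were rare. The ETS site CCGGAAGT was in 1 carrier window, that of Slc25a20 (2.17%, against 2.88% of all), and the sterol element TCACNCCAC in 1, of Slc25a18 (2.17%, against 1.05%). No carrier window held the ERR site TCAAGGTCA (0.387% of all), the NRF1 palindrome (0.782%) or the PPAR response element (0.0335%), in its strict form of AGGTCA repeated after 1 base. The ERR site ends in the same AGGTCA, so these motifs can overlap. A match describes letters only, and a missing one says only that these letters are not in this window.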

How the data were processed

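The authors deposited log2 array values, 1 column per mouse, with RMA named in the submitters' processing notes. RMA corrects background, equalises the arrays and condenses each probe set to 1 value, so a shift shared by most genes is removed. For the probe set definition, RMA version and genome build, the entry is: not given in the sources used here. RNA was amplified with a whole-transcript kit per the labels' protocols.

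Of 35556 probe sets, 21218 had 1 gene symbol in the platform annotation, whose symbols can be old, 1881 had several and 12457 none. Per gene the probe set with the highest mean was kept, giving 18820 genes. Groups came from the sample titles. Differences (inulin minus control) were fitted with limma 3.58.1 (lmFit and eBayes) in R 4.3.3 on all genes and 11 arrays without covariates, with Benjamini-Hochberg adjustment over all genes and a threshold of 0.05. Folds are the differences taken out of log2, and errors beside differences are standard errors. Unadjusted p-values serve for counts, read beside the share of all genes, and for choosing which carriers to describe, and no single gene is called from one. The steps were tested on simulated data with the same genes and arrays and with noise independent between genes. There 24% of 50 set changes of 0.25 log2 passed the adjusted threshold, 76% of those of 0.5 and 92% of those of 1. The carrier differences lay between -0.35 and 0.27, so changes of their size could be missed. The number of arrays limits the precision.

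Members, substrate classes, partner lists and most alternatives were chosen with earlier results of these data known. Named with full values were carriers with an unadjusted p under 0.05, the 5 highest and 5 lowest array values, carriers without overlap, any whose probe sets differ in sign (0 found) and Slc25a20. Of each partner list up to 3 genes with the smallest p were named, and the others named were chosen after their values were seen. Alternatives were other variance priors, array weights, a filter on low values, quantile or median scaling, mean probe sets, the replicate block, left-out mice, and tissue marker or Hox covariates. Promoter sequences are from RefSeq, GRCm38.p6.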

Additional observations from a re-analysis of the deposited data

Results flagged for a closer look

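Each carrier was checked in each diet for a mouse far from the others, and 5 of 92 groups were flagged, about the 1 in 20 that chance gives. Slc25a11 was at 10.35 in control 1, with the other controls at 10.25 to 10.27. Slc25a51 was at 9.26 in control 2, with the others at 9.03 to 9.07. Slc25a28 was at 7.60 in inulin 3, while the rest on inulin had 7.38 to 7.45, and Slc25a40 was at 8.23 in the same mouse, against 8.44 to 8.55. Slc25a39 was at 10.16 in inulin 5, against 10.31 to 10.38.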

How the results depend on the processing

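In 21 other fits 0 carriers passed an adjusted p of 0.05, and the smallest adjusted p in each ran from 0.070 to 0.329. At a threshold of 0.1 in the reported fit 0 passed. Carriers above 0 numbered 26 to 34, the lowest with a filter that left out 8 dim carriers. Higher carriers at an unadjusted p under 0.05 numbered 6 in the reported fit, 6 or 7 in most other fits on all mice, 9 with arrays centred on their median and 10 with array weights. The 1 lower carrier became 2 with a variance prior following the mean, array weights, quantile normalisation or without inulin mice 3, 4 and 5 together, and 4 with the Hox covariate. The median difference, 0.05, was 0.077 with arrays centred on their median and 0.079 with fat and pancreas covariates. Leaving out each mouse gave 5 to 8 higher, 1 to 3 lower (2 without control 4, inulin 3 or inulin 4, 3 without inulin 6), 0 past the adjusted threshold and medians of 0.041 to 0.068. Mice of the same replicate number had correlations of deviations from -0.10 to 0.22. These were not compared with other pairs of mice, so whether the numbers pair mice was not settled. In the replicate block inulin 6 has no control of its number and adds nothing to the difference. With that block 3 carriers were lower and Slc25a12 had the smallest limma adjusted p, 0.071. Of 15 named carriers, 2 changed sign: Slc25a3 (-0.00021) and Slc25a41 (-0.031) with quantile normalisation, and Slc25a41 also without control 2, control 3, inulin 1 or inulin 3 (-0.11 to 0.11 over all left-out mice). Of all genes, 17 passed in the reported fit, 245 with array weights, 95 with the replicate block, 50 without inulin 6, 98 without inulin 5 and 7 without control 1. The causes were not tested. Array signal limits the dim carriers.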
